A study of Homo sapiens with 18 samples.

Results

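Transcripts of 41 lysosome and autophagy genes were followed in T47D cells, an estrogen receptor-positive line of luminal breast cancer, after exposure to PARP inhibitors. The 41 genes were listed by name and function, with earlier results of these data known. They comprise 2 transcription factors, 7 lysosomal membrane proteins, 7 proteases, 8 glycosidases and sulfatases, 6 lipid-degrading enzymes or their activators, 6 proton pump subunits and 5 autophagy genes. All 41 were found among the 58884 gene identifiers counted, and all 41 were tested in every comparison. Polyadenylated RNA was sequenced from 6 groups of 3 libraries each. WT cells, whose line is labelled T47D AAV, and PARP1 KO cells, whose line is labelled T47D JL, were each kept for 48 hours with DMSO, 10 μmol/L niraparib or 10 μmol/L olaparib. Each genotype is thus 1 labelled line, so that loss of PARP1 and any other difference between the lines cannot be told apart, and the labels do not say whether either is a single clone. Nor do they say whether the 3 libraries of a group came from separate cultures. The study's methods describe 3 dishes per condition for its omics treatments, without tying a dish to a library. The P values therefore measure only the spread between these libraries, which may be technical.

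Lysosomes are acid compartments in which proteases, glycosidases, sulfatases and lipases break down material that arrives by endocytosis or by autophagy, the wrapping of cytoplasm in a double membrane. A proton pump, the V-ATPase, keeps them acid. TFEB and TFE3 are transcription factors that bind the CLEAR motif found near many lysosomal genes, and the kinase complex MTORC1 at the lysosomal surface holds them in the cytoplasm by phosphorylation when nutrients are plentiful. Their activity therefore depends largely on where the proteins are, which counts of RNA do not measure.

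The deposited counts summed to between 28890837 and 52251288 per library. PARP1 was at 291 to 373 CPM, which are counts scaled to a library of equal size, in WT libraries and at 22.9 to 27.6 CPM in PARP1 KO libraries, with no overlap. All 8 luminal epithelial markers exceeded 1 CPM in every library, and 0 of 7 macrophage markers did, with a summed macrophage level of 0.199 to 0.567 CPM. Of 5 fibroblast markers, COL1A1 alone exceeded 1 CPM in every library and carried a summed level of 88.8 to 153 CPM. Of 3 basal markers, TP63 was the 1 above 1 CPM in every library. A member is said to have risen or fallen where its adjusted P was below 0.05 in edgeR, with adjustment over all genes tested, and fold changes are on the log2 scale.

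The promoters show how often the binding motif of these factors occurs beside the members, whatever their response. Windows from 250 bases before to 50 bases after the RefSeq gene start were found for 28 of the 41 members in the RefSeq table (GRCh38.p14). Not in the table were LAMP2, CTSB, HEXA, NAGLU, SGSH, ARSA, ASAH1, PSAP, ATP6V1H, ATP6V1A, ATP6V1B2, ATP6V0E1 and UVRAG. The RefSeq start lay within 300 bases of the start in the annotation used here for gene positions in 16 of the 28, between 300 and 1000 bases away in 5, and farther away in 7 (SCARB2, CLN3, GPNMB, CTSA, CTSH, GM2A and MAP1LC3B). For these 7 the window is not at the gene start implied by the positions given with the values. On both strands, the core E-box CACGTG was present in 9 of the 28 windows (32.1%), against 7.26% of 35116 promoters of the same length. Its flanked form TCACGTGA, which contains the core, was present in 6 of 28 (21.4%), against 0.98% of all promoters. The M-box TCATGTGA, which has 1 other base and is bound by the related factor MITF, was present in 4 of 28 (14.3%), against 1.0%. These shares are a description without a test. The CLEAR motif was already known near many lysosomal genes, so its share among the members is not independent of how they were chosen. All promoters compared were of the same length but not otherwise matched to the members. The windows below show the flanked E-box of MCOLN1 and ATP6V0D1, which rose with niraparib in WT cells, of CTSA, which fell, and of LAMP1 and GAA, which did not pass the test, and the M-box of GPNMB and TPP1, which rose. Capitals mark the motif matches, and each stretch is read 5′ to 3′ on the strand of the gene.
MCOLN1, chr19:7522564-7522634, plus strand: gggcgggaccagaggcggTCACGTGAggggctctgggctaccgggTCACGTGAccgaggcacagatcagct
ATP6V0D1, chr16:67481192-67481235, minus strand: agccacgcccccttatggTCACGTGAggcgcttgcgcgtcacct
CTSA, chr20:45891275-45891334, plus strand: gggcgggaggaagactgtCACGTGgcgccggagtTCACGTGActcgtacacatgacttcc
LAMP1, chr13:113297192-113297262, plus strand: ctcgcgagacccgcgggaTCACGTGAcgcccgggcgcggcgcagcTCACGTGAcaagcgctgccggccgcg
GAA, chr17:80101531-80101574, plus strand: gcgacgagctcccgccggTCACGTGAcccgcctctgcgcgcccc
GPNMB, chr7:23246694-23246737, plus strand: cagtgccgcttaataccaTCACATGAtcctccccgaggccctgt
TPP1, chr11:6619406-6619461, minus strand: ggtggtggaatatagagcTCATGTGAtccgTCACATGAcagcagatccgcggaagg

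TCACATGA is the M-box read on the opposite strand. With niraparib in WT cells, the flanked E-box stood in 2 of the 9 members with a window that rose, in 1 of the 8 that fell and in 3 of the 11 that did not pass. The M-box stood in 2, 1 and 1 of them in the same order. Besides GPNMB and TPP1 these are CD63, which fell, and PPT1, which did not pass, whose M-box windows are not printed above. A match is a run of letters in these windows and not a measured site. The windows of TFEB, TFE3, SQSTM1, MAP1LC3B, GM2A and WIPI1 held none of the 3 motifs.

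**Figure D1:**
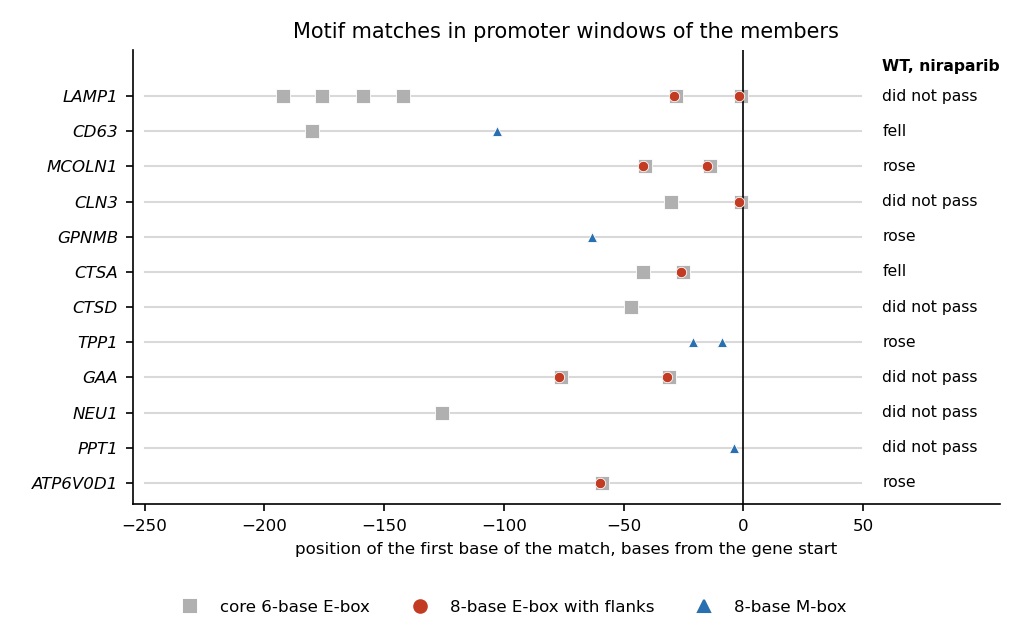
Position of each motif match, in bases from the RefSeq gene start, in the promoter windows of the 12 members that held one. Grey squares mark the core E-box, red circles its flanked form and blue triangles the M-box; the right column gives the member's change with niraparib in WT cells, and members with the flanked E-box are found among those that rose, fell and did not pass.

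With DMSO, levels per kilobase of exon spanned a wide range among the members. In WT cells the saposin precursor PSAP was highest, at 233 ± 17.1 RPKM (CPM per kilobase of exon, SD, n = 3), followed by the tetraspanin CD63 at 195 ± 18.9 RPKM and cathepsin D (CTSD) at 147 ± 17.6 RPKM. TFEB was next to last at 1.18 ± 0.149 RPKM, whereas TFE3 was at 32.0 ± 0.457 RPKM. The lysosomal membrane protein gene CLN3 was lowest, at 0.151 ± 0.0687 RPKM. Of its exon bases, 25.2% are shared with other genes of the same strand, where reads were not counted, and its lowest library held 17 counts. The shared portion was 42.2% for CTSD, 12.9% for NAGLU, 11.6% for TPP1, 4.9% for HEXA and 4.4% for MCOLN1. RPKM divides by all exon bases, shared ones included, so it may understate the level of these genes. The place of CTSD below PSAP and CD63, which share none, is therefore not settled.

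The first comparison asked how niraparib changed these transcripts in WT cells, and the members moved in both directions. TFEB, TFE3, the autophagy genes SQSTM1 and MAP1LC3B and the glycoprotein gene GPNMB rose, while the lipid transfer protein gene GM2A and the autophagy gene WIPI1 fell. Among the genes for hydrolases, other membrane proteins and pump subunits, some rose and others fell. Of the 41 members, 10 rose and 13 fell (edgeR, adjusted P below 0.05). Among all 22446 genes tested, 19.9% were higher and 18.1% lower by that rule. The median log2 fold change was -0.09 over the members and -0.02 over all genes. Beyond 1.5-fold, 3 members rose and 2 fell, with 13.8% of all genes past that limit in either direction. In bulk RNA, a change in which cells are present and a change in RNA per cell cannot be told apart.

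The markers of luminal breast epithelium fell beside these changes. Of 8 such markers 8 fell with niraparib in WT cells, where 18.1% of all genes were lower. Their summed level was 13600 to 14230 CPM with DMSO and 9658 to 10720 CPM with niraparib. The progesterone receptor gene PGR fell, at -0.88 (SE 0.06, adjusted P = 4.8e-11, edgeR), the luminal transcription factor gene GATA3 at -0.74, the estrogen receptor gene ESR1 at -0.56 and the keratin gene KRT8 at -0.49. The basal factor TP63 rose by 0.78 (SE 0.20, adjusted P = 0.0031), from between 1.36 and 1.45 CPM to between 2.32 and 2.54 CPM, while the basal keratins KRT5 and KRT14 stayed under 1 CPM. With olaparib in WT cells the same 8 fell, to a sum of 10530 to 11020 CPM, where 7.77% of all genes were lower. TP63 was at 0.06 with olaparib and did not pass. In PARP1 KO cells the sum was 15120 to 15840 CPM with DMSO, 13930 to 14270 CPM with niraparib and 12720 to 13930 CPM with olaparib. There 0 of the 8 passed with niraparib in edgeR, where 0.059% of all genes were higher and 0.0499% lower. Of the 8, 4 had an unadjusted P below 0.05, a limit at which all genes were not counted, and 1, KRT19, passed in DESeq2. With olaparib in PARP1 KO cells 5 of the 8 fell, where 3.87% of all genes were lower. Of the 8, 6 had a higher interaction with niraparib and 3 with olaparib, where 10.4% and 0.912% of all genes were higher. TP63 had a lower interaction with niraparib, at -1.105 (SE 0.29, adjusted P = 0.0034). Between niraparib and olaparib in WT cells 2 of the 8 were lower with niraparib, where 16.2% of all genes were lower. These were GATA3, at -0.46 (adjusted P = 1.6e-07), and PGR, at -0.27 (adjusted P = 7.1e-04). TP63 was higher with niraparib than with olaparib by 0.72 (adjusted P = 0.0074). Of the macrophage and fibroblast markers tested, 0 passed in any comparison of a drug with DMSO in edgeR or DESeq2, and 0 had an unadjusted P below 0.05 in edgeR. The part of these markers in the results for the members was not tested.

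**Figure D2:**
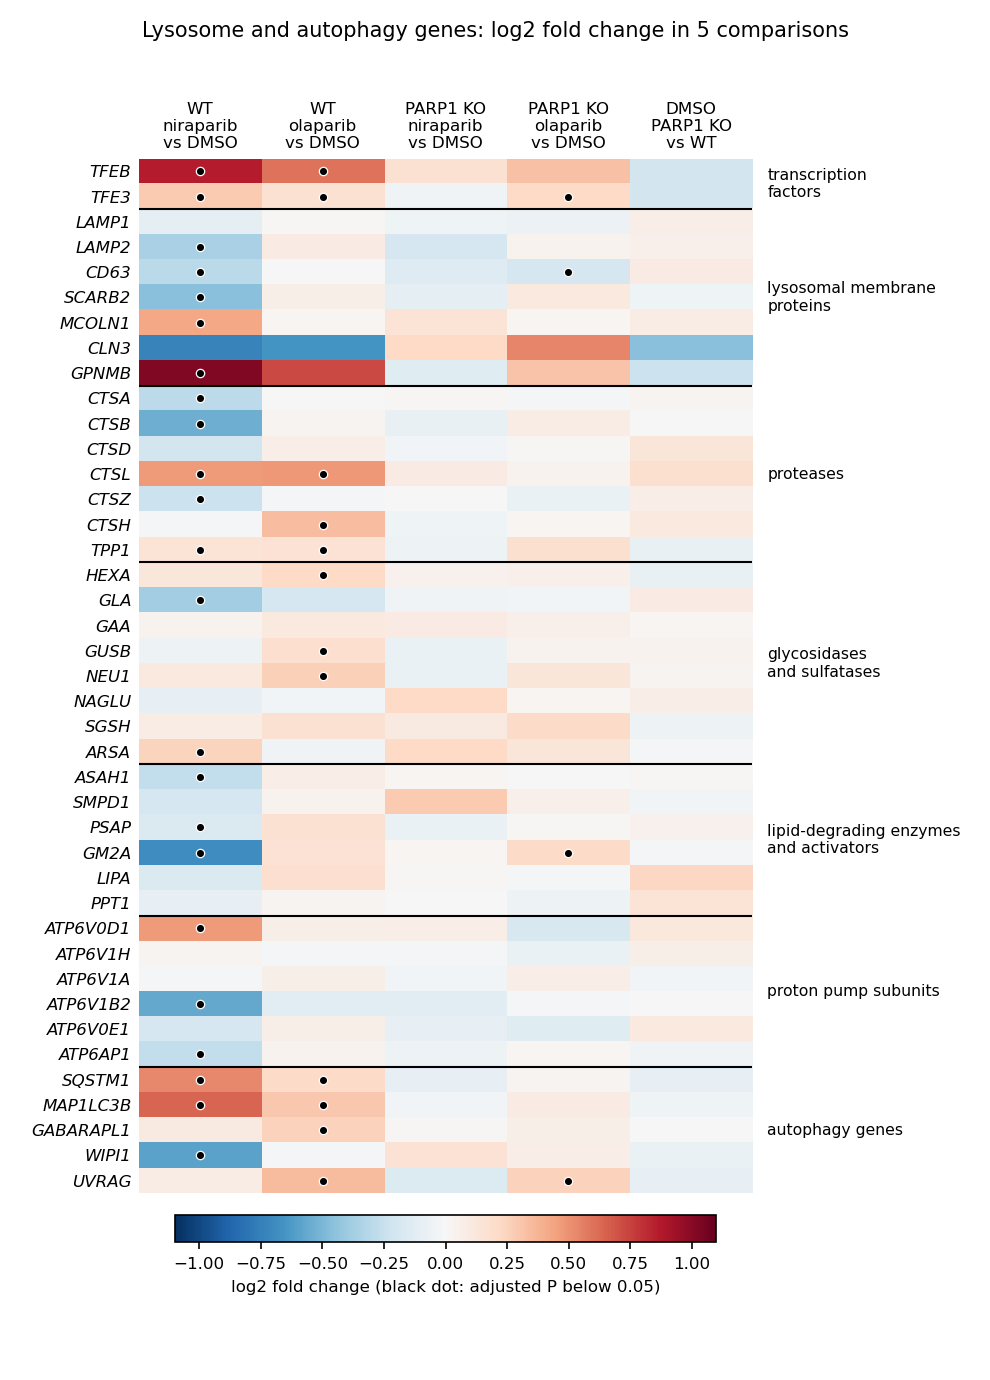
Log2 fold change of each of the 41 members (rows, by role) in 5 comparisons (columns), from blue (lower) to red (higher), with a black dot where adjusted P was below 0.05. Dots fall on 23 members for niraparib and 12 for olaparib in WT cells, on 0 and 4 in PARP1 KO cells and on 0 between the genotypes with DMSO.

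Both transcription factors rose with niraparib in WT cells. TFEB (chromosome 6 from 41683978 to 41736259, minus strand, GRCh38) was at 6.37, 7.58 and 5.96 CPM with DMSO and at 13.4, 10.99 and 12.1 CPM with niraparib. The lowest niraparib library stood above the highest DMSO library. The log2 fold change was 0.86 (SE 0.11, adjusted P = 1.2e-06, edgeR), which is 1.82-fold. TFE3 (chromosome X from 49028726 to 49043410, minus strand), the more abundant of the pair, was at 134, 137 and 133 CPM with DMSO and at 167, 167 and 159 CPM with niraparib. Its libraries did not overlap either, and its log2 fold change was 0.29 (SE 0.05, adjusted P = 3.4e-05).

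Among the autophagy genes 2 rose and 1 fell. SQSTM1 encodes p62, the receptor that ties ubiquitin-marked cargo to the autophagosome (chromosome 5 from 179806398 to 179838078, plus strand). It was at 256, 274 and 282 CPM with DMSO and at 389, 389 and 395 CPM with niraparib, a log2 fold change of 0.53 (SE 0.05, adjusted P = 5.4e-09). MAP1LC3B encodes LC3B, which is joined to lipid on the growing autophagosome membrane (chromosome 16 from 87383953 to 87404779, plus strand). It was at 87.7, 91.3 and 93.1 CPM with DMSO and at 143, 135 and 147 CPM with niraparib, a log2 fold change of 0.64 (SE 0.05, adjusted P = 4.9e-10). For both genes the libraries of a group lay close together and the groups were far apart. WIPI1, a phosphoinositide-binding protein of early autophagosomes (chromosome 17 from 68420948 to 68457513, minus strand), went the other way, from 161, 189 and 194 CPM to 132.3, 105.2 and 125.4 CPM. Its log2 fold change was -0.59 (SE 0.09, adjusted P = 2.3e-04). The LC3 relative GABARAPL1 was at 0.10 (SE 0.06, adjusted P = 0.18), and UVRAG, part of a lipid kinase complex of autophagy, was at 0.08 (SE 0.06, adjusted P = 0.28).

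Of the 7 lysosomal membrane proteins 2 rose and 3 fell. GPNMB, a glycoprotein of melanosomes and lysosomes (chromosome 7 from 23235967 to 23275108, plus strand), was at 20.97, 40.9 and 38.3 CPM with DMSO and at 69.7, 64.2 and 71.3 CPM with niraparib. DMSO replicate 1 stood well below the other DMSO libraries, and all niraparib libraries were above all DMSO libraries. The log2 fold change of 1.02 (SE 0.23, adjusted P = 0.013) became 0.78 (adjusted P = 5.4e-11) without DMSO replicate 1. The lysosomal calcium channel gene MCOLN1 rose by 0.43 (SE 0.11, adjusted P = 0.0047). The genes for the lysosomal receptor SCARB2 and the membrane glycoprotein LAMP2 fell, with log2 fold changes of -0.46 (SE 0.06, adjusted P = 1.4e-06) and -0.36 (SE 0.07, adjusted P = 6.0e-04). CD63 fell as well, at -0.30. LAMP1 was at -0.10 and CLN3 at -0.73 with a standard error of 0.39, and neither passed.

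The lipid-degrading group held no member that rose. GM2A encodes the activator that presents ganglioside GM2 to hexosaminidase A (chromosome 5 from 151212150 to 151270440, plus strand). It was at 123, 138 and 138 CPM with DMSO and at 90.2, 72.9 and 86.6 CPM with niraparib, so that every niraparib library was below every DMSO library. Its log2 fold change was -0.68 (SE 0.07, adjusted P = 5.4e-07). The acid ceramidase gene ASAH1 fell, at -0.27 (SE 0.06, adjusted P = 0.0020), and so did PSAP, at -0.16 (SE 0.06, adjusted P = 0.047), though not with all 18 libraries in 1 fit (adjusted P = 0.10). The acid sphingomyelinase gene SMPD1 was at -0.19 (SE 0.08, adjusted P = 0.057). The acid lipase gene LIPA and the thioesterase gene PPT1 did not pass, at -0.15 and -0.09. Without niraparib replicate 2 SMPD1 was at -0.12, LIPA at -0.07 and PPT1 at -0.03.

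Of the 7 proteases 2 rose and 3 fell. Cathepsin B (CTSB) fell, at -0.54 (SE 0.06, adjusted P = 2.8e-07), as did the protective protein cathepsin A (CTSA), at -0.29 (SE 0.07, adjusted P = 0.0032), and cathepsin Z (CTSZ), at -0.23, which became -0.15 (adjusted P = 0.012) without niraparib replicate 2. Cathepsin L (CTSL) rose by 0.47 (SE 0.11, adjusted P = 0.0035), and the tripeptidyl peptidase gene TPP1 rose by 0.15. CTSD and CTSH did not pass. Of the 8 glycosidases and sulfatases, the alpha-galactosidase gene GLA fell, at -0.39 (SE 0.09, adjusted P = 0.0014), and the arylsulfatase gene ARSA rose by 0.25 (SE 0.08, adjusted P = 0.015). The sialidase gene NEU1 was at 0.11 (SE 0.05, adjusted P = 0.11), and HEXA, GAA, GUSB, NAGLU and SGSH lay between -0.09 and 0.12 without passing.

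The proton pump subunits also split. ATP6V1B2, of the catalytic part in the cytoplasm, was at 175, 180 and 178 CPM with DMSO and at 122, 116 and 123 CPM with niraparib, a log2 fold change of -0.56 (SE 0.05, adjusted P = 1.6e-09). The accessory subunit gene ATP6AP1 fell, at -0.27 (SE 0.06, adjusted P = 5.4e-04). ATP6V0D1, of the membrane part, rose by 0.47 (SE 0.06, adjusted P = 1.1e-06), from between 75.5 and 89.9 CPM to between 112 and 123 CPM. ATP6V1H, ATP6V1A and ATP6V0E1 did not pass.

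Libraries of a group varied together across the members. Against the WT DMSO mean, the median log2 difference over the 41 members was -0.10 in DMSO replicate 1, against 0.04 and 0.06 in the other DMSO libraries, and -0.14 in niraparib replicate 2, against -0.03 and 0.003 in the other niraparib libraries. The number of members that passed with niraparib stayed between 20 and 28 when any single library was left out. Among the members that passed, 4 lost the call in at least 1 such fit. CD63 did so without DMSO replicate 2 or 3, TPP1 without DMSO replicate 1, ARSA without niraparib replicate 2 or DMSO replicate 2, and PSAP without niraparib replicate 2 (-0.09), DMSO replicate 2 or DMSO replicate 3.

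**Figure D3:**
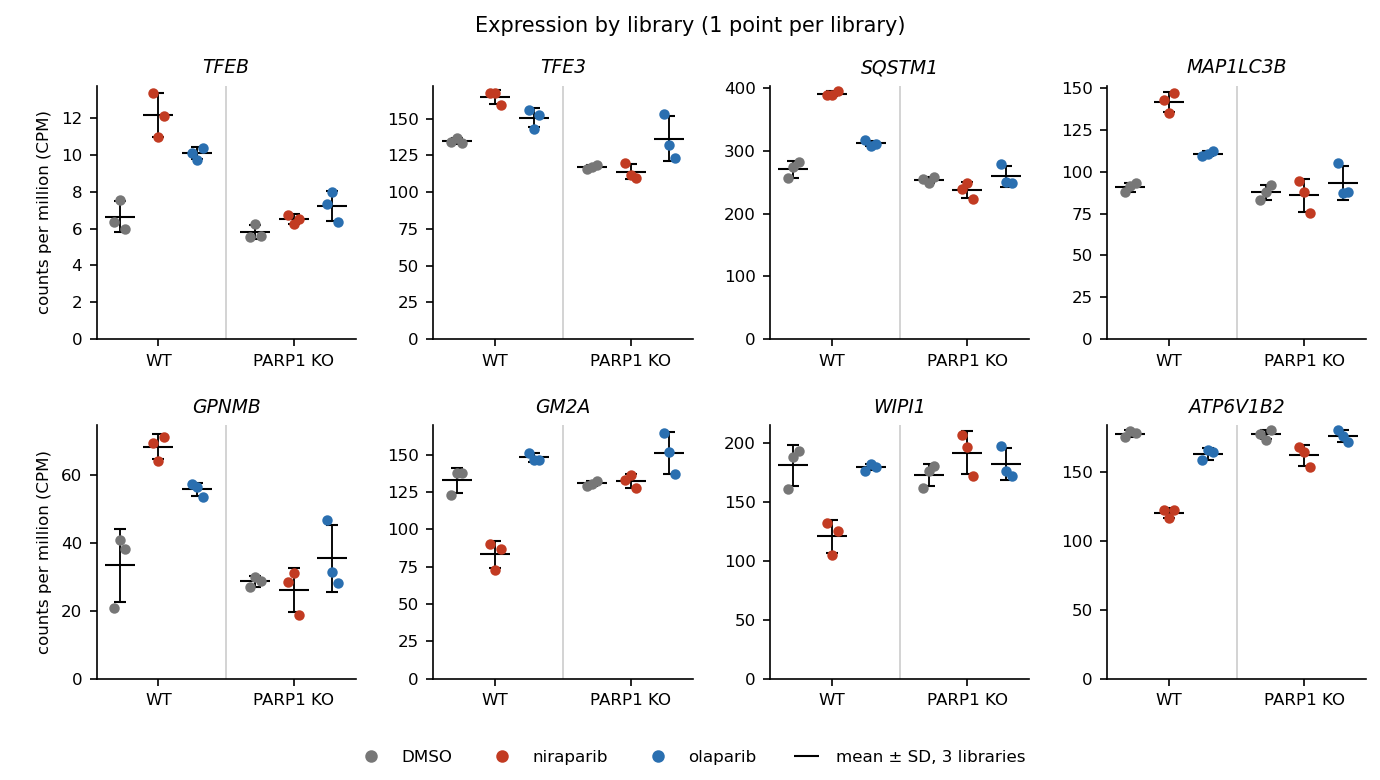
Level in CPM of 8 members in each library, with points for libraries and bars for the mean ± SD of 3 libraries, in WT cells (left of each panel) and PARP1 KO cells (right). In WT cells TFEB, TFE3, SQSTM1, MAP1LC3B and GPNMB lie higher with niraparib than with DMSO and GM2A, WIPI1 and ATP6V1B2 lie lower, while in PARP1 KO cells none of the 8 passed the test with niraparib.

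Olaparib in WT cells gave 12 members that rose and 0 that fell, where 11.2% of all 22446 genes were higher and 7.77% lower. The median log2 fold change was 0.07 over the members and -0.02 over all genes. A single member, TFEB, passed beyond 1.5-fold, with 4.04% of all genes past that limit. TFEB was at 10.1, 9.75 and 10.4 CPM with olaparib, above all 3 DMSO libraries, a log2 fold change of 0.60 (SE 0.11, adjusted P = 4.7e-04). TFE3 was at 156, 143 and 153 CPM and rose by 0.16 (SE 0.05, adjusted P = 0.017). Of the autophagy genes 4 rose, namely UVRAG by 0.35, MAP1LC3B by 0.29, GABARAPL1 by 0.26 and SQSTM1 by 0.21, and WIPI1 was at -0.01 with a 95% confidence interval from -0.20 to 0.18. SQSTM1 was at 317, 308 and 311 CPM and MAP1LC3B at 109, 111 and 113 CPM, in each case above every DMSO library and below every niraparib library.

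The other members that rose with olaparib were enzymes. CTSL rose by 0.47, CTSH by 0.34 and TPP1 by 0.16 among the proteases, and NEU1 by 0.26, HEXA by 0.22 and GUSB by 0.18 among the glycosidases. None of the lysosomal membrane proteins, the lipid-degrading group or the pump subunits passed. GPNMB was at 57.4, 56.4 and 53.6 CPM with a log2 fold change of 0.73 (SE 0.23, adjusted P = 0.082). It passed without DMSO replicate 1, at 0.50 (adjusted P = 1.2e-06), and with DESeq2. GM2A was at 152, 147 and 146 CPM, with a log2 fold change of 0.16 (95% confidence interval 0.01 to 0.31, adjusted P = 0.12). The count of 12 fell to 7 without olaparib replicate 1, in which fit TFE3, CTSH, TPP1, HEXA and GUSB did not pass. TFE3, TPP1, HEXA and GUSB also lost the call without olaparib replicate 3, CTSH without olaparib replicate 2, TPP1 without DMSO replicate 1 or 2, HEXA without DMSO replicate 2 and TFE3 without DMSO replicate 3.

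The drugs were then compared directly in WT cells, which shows where the members differ between niraparib and olaparib at the same dose and time. With niraparib 6 members were higher than with olaparib and 20 were lower, where 16.1% of all genes were higher and 16.2% lower. The median log2 difference over the members was -0.16. GM2A was the sole member past 1.5-fold, with 8.95% of all genes past that limit, at -0.84 (SE 0.07, adjusted P = 8.4e-08). Of the 6 lipid-degrading members 5 were lower with niraparib, as were 4 of 7 proteases and 3 of 7 membrane proteins. So were 3 of 5 autophagy genes, 3 of 6 pump subunits and 2 of 8 glycosidases and sulfatases. WIPI1 was at -0.58, CTSB at -0.56 and SCARB2 at -0.52. The 6 that were higher were ARSA, ATP6V0D1, MAP1LC3B, MCOLN1, SQSTM1 and TFE3. MAP1LC3B differed by 0.35 (SE 0.05, adjusted P = 5.0e-06), SQSTM1 by 0.32 (SE 0.05, adjusted P = 9.4e-06), and TFE3 by 0.13 (adjusted P = 0.047), which did not pass in 4 of the 6 fits that left out a library or with all 18 libraries in 1 fit (adjusted P = 0.084). For TFEB the difference of 0.26 did not pass (95% confidence interval 0.04 to 0.48, adjusted P = 0.065). CTSL differed by -0.003 (95% confidence interval -0.24 to 0.23). The 3 comparisons within WT cells share libraries and are not independent of each other.

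The same treatments were given to PARP1 KO cells. With niraparib 0 of the 41 members passed in edgeR, where 0.059% of all 22037 genes were higher and 0.0499% lower. There were 7 members at an unadjusted P below 0.05, but the share of all genes at that limit was not computed. With DESeq2 there were 0 members at an adjusted P below 0.05. Beyond 1.5-fold, 0.0136% of all genes passed. TFEB was at 5.56, 6.27 and 5.61 CPM with DMSO and at 6.76, 6.24 and 6.53 CPM with niraparib, so the groups overlapped, and its log2 fold change was 0.17 (95% confidence interval -0.08 to 0.42). TFE3 was at 116, 117 and 118 CPM with DMSO and at 120, 112 and 110 CPM with niraparib. Its log2 fold change was -0.04 (95% confidence interval -0.17 to 0.10).

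SQSTM1 in PARP1 KO cells was at 256, 249 and 258 CPM with DMSO and at 240, 250 and 224 CPM with niraparib. Its log2 fold change was -0.09 (95% confidence interval -0.20 to 0.02). MAP1LC3B was at 83.2, 87.9 and 91.9 CPM and at 94.5, 88.0 and 75.1 CPM, with an interval from -0.22 to 0.16. Niraparib replicate 3 was the lowest library for both genes, and over the 41 members its median log2 difference from the PARP1 KO DMSO mean was -0.12, against 0.03 in each of the other niraparib libraries. GPNMB was at 27.1, 30.03 and 28.9 CPM with DMSO and at 28.6, 31.1 and 18.9 CPM with niraparib, with a wide interval from -0.75 to 0.49. GM2A was at 129, 131 and 133 CPM and at 133, 137 and 128 CPM, with an interval from -0.10 to 0.14. WIPI1 was at 162, 176 and 180 CPM and at 207, 197 and 172 CPM, with a log2 fold change of 0.15 (95% confidence interval 0.01 to 0.30, adjusted P = 0.50).

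With olaparib in PARP1 KO cells 3 members rose and 1 fell, where 4.42% of all genes were higher and 3.87% lower and 0.803% passed beyond 1.5-fold. UVRAG rose by 0.25 (adjusted P = 0.048), TFE3 by 0.22 (adjusted P = 0.034) and GM2A by 0.21 (adjusted P = 0.027), and CD63 fell by 0.18 on the log2 scale (adjusted P = 0.042). CD63 did not pass with all 18 libraries in 1 fit (adjusted P = 0.19) and lost the call in 4 of 6 leave-one-out fits. TFE3 was at 153, 132 and 123 CPM and GM2A at 165, 152 and 137 CPM, in each case above every PARP1 KO DMSO library. TFEB was at 7.33, 7.97 and 6.37 CPM, also above the DMSO libraries, with a log2 fold change of 0.32 (95% confidence interval 0.07 to 0.57, adjusted P = 0.11). GPNMB was at 46.8, 31.4 and 28.2 CPM, SQSTM1 at 279, 251 and 249 CPM, MAP1LC3B at 105.2, 87.2 and 88.0 CPM and WIPI1 at 198, 176 and 172 CPM, and olaparib replicate 1 was the highest library for each of these 4 genes. The count of 4 fell to 0 without olaparib replicate 2 or DMSO replicate 2, to 1 without DMSO replicate 3 and to 2 without olaparib replicate 1, where TFE3 was at 0.13 and UVRAG at 0.14. Without DMSO replicate 1 the count was 3, with 1 member higher and 2 lower.

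Between niraparib and olaparib in PARP1 KO cells 3 members were higher with niraparib (ATP6V0D1, NAGLU and SMPD1) and 6 were lower (TFE3, SCARB2, CTSB, TPP1, GM2A and UVRAG). Of all genes 4.27% were higher and 5.73% lower, with 1.07% beyond 1.5-fold and 0 members among them. The largest difference among these 9 was in UVRAG, at -0.40 (SE 0.08, adjusted P = 0.0024), which alone of the 9 passed in every fit that left out a library. The count of 9 fell to 1 without niraparib replicate 2, to 2 without olaparib replicate 1, to 3 without olaparib replicate 2 and to 5 without niraparib replicate 3.

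Whether the response to niraparib differed between the genotypes was tested as an interaction over all 18 libraries, as the log2 fold change in PARP1 KO cells minus that in WT cells. It passed for 19 members, higher for 12 and lower for 7, where 10.4% of all 24675 genes were higher and 12.5% lower. The median over the members was 0.05 and over all genes 0.03. The interaction contains the change in WT cells, so the 2 share libraries and are not independent. NAGLU and SMPD1 passed the interaction without passing in WT cells: NAGLU was at -0.09 in WT and 0.22 in PARP1 KO cells, and SMPD1 at -0.19 and 0.29. Beyond 1.5-fold there were 6 members, with 8.88% of all genes past that limit.

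**Figure D4:**
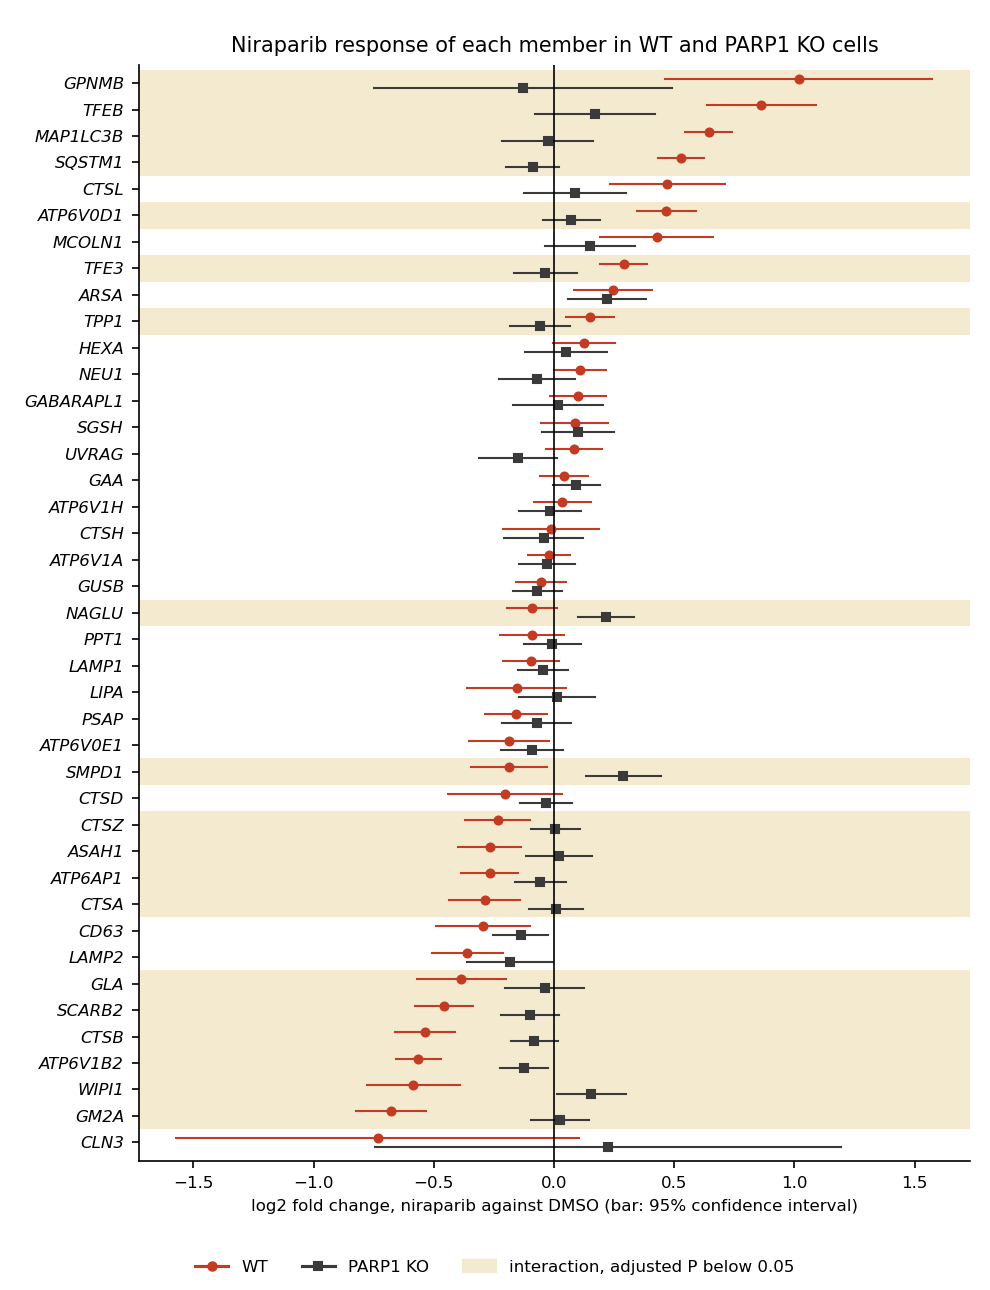
Log2 fold change of each member with niraparib against DMSO, with 95% confidence intervals, in WT cells (red circles) and PARP1 KO cells (grey squares), ordered by the value in WT cells. Shading marks the 19 members whose interaction passed, among them NAGLU and SMPD1, which did not pass in WT cells.

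The 6 members past 1.5-fold in the interaction were GPNMB, WIPI1, TFEB, GM2A, MAP1LC3B and SQSTM1. SQSTM1 was at -0.62 (SE 0.07, adjusted P = 1.2e-08) and MAP1LC3B at -0.68 (SE 0.10, adjusted P = 8.4e-06). TFEB was at -0.70 (SE 0.16, adjusted P = 9.4e-04), and TFE3, below 1.5-fold, at -0.33 (SE 0.08, adjusted P = 0.0017). GM2A was at 0.70 (SE 0.09, adjusted P = 1.5e-06) and WIPI1 at 0.74 (SE 0.13, adjusted P = 4.3e-04). GPNMB had the largest value and the largest error of the 6, at -1.16 (SE 0.35, adjusted P = 0.029). GPNMB did not pass without PARP1 KO niraparib replicate 3 or PARP1 KO DMSO replicate 2 or 3, whereas the other 5 and TFE3 passed in every fit that left out a library.

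Of the remaining members, CTSB was at 0.45, SMPD1 at 0.47, ATP6V1B2 at 0.43, SCARB2 at 0.35 and NAGLU at 0.30, and ATP6V0D1 was at -0.40. These 6 also passed whichever library was left out. GLA, CTSA, ASAH1, CTSZ and ATP6AP1, from 0.34 to 0.21, and TPP1, at -0.21, lost the call in at least 2 such fits each. The interaction did not pass for LAMP2, CD63, MCOLN1, CTSL, ARSA and PSAP, which had passed with niraparib in WT cells.

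The corresponding interaction for olaparib passed for 0 members in edgeR, where 0.912% of all genes were higher, 1.35% lower and 0.657% beyond 1.5-fold. There were 4 members (CTSL, CTSH, ATP6V0D1 and SQSTM1) at an unadjusted P below 0.05, but the share of all genes at that limit was not computed. With DESeq2 there were 0 members at an adjusted P below 0.05. TFEB was at -0.28 (95% confidence interval -0.60 to 0.05), SQSTM1 at -0.17 (-0.32 to -0.03) and MAP1LC3B at -0.20 (-0.40 to 0.01). With DMSO alone, 0 members differed between PARP1 KO and WT cells in edgeR, where 0.811% of all genes were higher, 0.584% lower and 0.146% beyond 1.5-fold. At an unadjusted P below 0.05 there were 4 members, again without a computed share of all genes. With DESeq2 there was 1 member at an adjusted P below 0.05, TFE3. TFE3 was lower in all 3 PARP1 KO libraries, at -0.20 (95% confidence interval -0.32 to -0.09, adjusted P = 0.064 in edgeR). TFEB was at -0.20 (95% confidence interval -0.43 to 0.03).

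Other genes of the pathway were counted from 4 lists drawn up by function, also with earlier results known. MTORC1 is recruited to the lysosome by RAG GTPases, and the folliculin complex switches the RAG GTPases that bring TFEB there. The list holds 15 genes of this arm and the TFEB relatives MITF and TFEC, of which TFEC was not tested for its low counts. Of the 15 genes 6 rose and 3 fell with niraparib in WT cells (40% and 20%, against 19.9% and 18.1% of all genes), with a median of 0.02. With olaparib 5 rose and 1 fell in WT cells (33.3% and 6.67%, against 11.2% and 7.77%), and 4 rose and 2 fell in PARP1 KO cells (26.7% and 13.3%, against 4.42% and 3.87%). With niraparib in WT cells MITF rose 2.83-fold (log2 SE 0.18, adjusted P = 6.1e-07). Its level went from between 1.07 and 1.35 CPM to between 3.24 and 3.62 CPM. RRAGD, a RAG GTPase, rose by 0.92 (SE 0.09, adjusted P = 1.4e-08), from between 9.10 and 10.8 CPM to between 17.9 and 19.7 CPM. FLCN, which encodes folliculin, rose by 0.75 (SE 0.10, adjusted P = 7.6e-05), from between 24.6 and 31.1 CPM to between 40.7 and 51.2 CPM. RRAGD and FLCN are known targets of TFEB.

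The same 3 genes were followed with olaparib and in PARP1 KO cells. With olaparib in WT cells MITF rose by 1.03, RRAGD by 1.22 and FLCN by 0.86. In PARP1 KO cells RRAGD rose by 0.78 (SE 0.11, adjusted P = 2.2e-04) and FLCN by 0.76 (SE 0.08, adjusted P = 1.4e-05) with olaparib, and with niraparib they were at -0.05 and -0.16 and did not pass. MITF in PARP1 KO cells was at 0.09 with olaparib and -0.01 with niraparib, neither of which passed. Of the 15 genes 0 had a higher and 6 a lower niraparib interaction (0% and 40%, against 10.4% and 12.5% of all genes). MITF, RRAGD and FLCN were chosen by the size of their change with niraparib in WT cells, which the interaction contains, so their values of -1.52, -0.98 and -0.92 are a description. The olaparib interaction passed for 0 of the 16 genes tested, MITF included, in edgeR, where 0.912% of all genes were higher and 1.35% lower. Of the 16, 4 had an unadjusted P below 0.05, a limit at which all genes were not counted, and 1, MITF, passed in DESeq2. This interaction was -0.93 for MITF (SE 0.29, adjusted P = 0.078), -0.44 for RRAGD (SE 0.14, adjusted P = 0.088) and -0.09 for FLCN (SE 0.14, adjusted P = 0.79).

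Of 35 other autophagy genes 7 rose and 7 fell with niraparib in WT cells, and 6 rose and 2 fell with olaparib. Thus 20% rose and 20% fell with niraparib, against 19.9% and 18.1% of all genes, and 17.1% and 5.7% with olaparib, against 11.2% and 7.77%. MAP1LC3A, a close relative of MAP1LC3B, rose by 1.94 (SE 0.32, adjusted P = 4.1e-05), though from a level of only 0.249 to 0.407 CPM to between 1.28 and 1.43 CPM. AMBRA1, which aids the start of autophagy, rose by 0.57 (SE 0.05, adjusted P = 2.9e-09), and ATG101, of the initiating kinase complex, rose by 0.41 (SE 0.05, adjusted P = 6.6e-07). Of 36 other lysosomal enzymes and transporters 4 rose and 11 fell with niraparib, with a median of -0.06, whereas 8 rose and 0 fell with olaparib, with a median of 0.07. These are 11.1% and 30.6% of the list with niraparib, against 19.9% and 18.1% of all genes, and 22.2% and 0% with olaparib, against 11.2% and 7.77%. The membrane protein gene LAPTM4A fell, at -0.55 (SE 0.08, adjusted P = 2.5e-04), as did the arylsulfatase gene ARSB, at -0.50 (SE 0.11, adjusted P = 6.6e-04), and cathepsin K (CTSK), at -0.49 (SE 0.15, adjusted P = 0.014). CTSK was at -0.26 and did not pass (adjusted P = 0.14) without DMSO replicate 1, whereas the other named genes of these lists passed in every fit with niraparib in WT cells that left out a library. Of 12 other proton pump subunits 3 rose and 2 fell with niraparib in WT cells (25% and 16.7%, against 19.9% and 18.1% of all genes), with ATP6V0A2 at 0.48, ATP6V0E2 at -0.32 and ATP6V1F at 0.29. With olaparib 2 of the 12 rose and 0 fell (16.7% and 0%, against 11.2% and 7.77%). With niraparib in PARP1 KO cells 0 of the 99 genes tested from these 4 lists passed in edgeR, where 0.059% of all genes were higher and 0.0499% lower. Of the 99, 16 had an unadjusted P below 0.05, a limit at which all genes were not counted, and 1, RRAGB, passed in DESeq2.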

How the data were processed

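RNA of T47D cells was sequenced in 18 libraries. The authors deposited counts of reads per gene, not normalized, for each library. They mapped reads to GRCh38 with STAR, marked duplicates with Picard and counted reads on exons with featureCounts 2.0.0 (reverse strand, primary alignments, Ensembl annotation). Reads shared by several genes of 1 strand were left uncounted, and the sources used here do not state whether marked duplicates were removed. A gene was tested if its counts summed to more than 10 across the libraries used. Tests were quasi-likelihood F tests of edgeR 4.0.16 (R 4.3.3) with TMM scaling, robust dispersions and Benjamini-Hochberg adjustment over all genes. WT and PARP1 KO cells were fitted separately with 9 libraries each; genotypes and interactions used all 18. Standard errors were obtained as the size of the log2 fold change over the square root of F. CPM values are scaled by TMM over all 18 libraries, and RPKM divides them by exon length. Motifs were searched in RefSeq promoter sequences of GRCh38.p14.

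Members, lists and tests were chosen with earlier results of these data known. Members are named with per-library values if they passed beyond 1.5-fold in any comparison, or are TFEB or TFE3; ATP6V1B2 was added to these after its values were seen. Up to 3 further members per role are named by adjusted P, and up to 3 passing genes per other list by size of change, with niraparib in WT cells. Alternatives were RLE size factors, other filters, DESeq2 1.42.0, blocks by replicate number, all libraries in 1 fit, stricter thresholds and each library left out. The same alternatives were added for the named genes of the other lists after the data were seen. No 2 libraries of a group were as close as sampling noise: the chi-square per gene was 3.00 to 17.3 over 18 pairs.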

Additional observations from a re-analysis of the deposited data

Results flagged for a closer look

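The change with niraparib differed between WT and PARP1 KO cells for 19 members (interaction over 18 libraries, edgeR, adjusted P below 0.05), where 10.4% of all 24675 genes were higher and 12.5% lower; values are the log2 fold change in PARP1 KO minus that in WT cells. Among genes higher with niraparib in WT cells it was -1.16 for GPNMB, -0.70 for TFEB, -0.68 for MAP1LC3B, -0.62 for SQSTM1, -0.40 for ATP6V0D1, -0.33 for TFE3 and -0.21 for TPP1. Among genes lower with niraparib in WT cells it was 0.74 for WIPI1, 0.70 for GM2A, 0.45 for CTSB, 0.43 for ATP6V1B2, 0.35 for SCARB2, 0.34 for GLA, 0.29 for CTSA, 0.28 for ASAH1, 0.23 for CTSZ and 0.21 for ATP6AP1. For SMPD1 and NAGLU, which did not pass with niraparib in either genotype, it was 0.47 and 0.30. The adjusted P values lay between 1.2e-08 for SQSTM1 and 0.048 for ATP6AP1. Leaving out 1 library gave 13 to 19 members, and GPNMB, GLA, CTSA, ASAH1, CTSZ, ATP6AP1 and TPP1 lost the call in at least 2 such fits each. The interaction contains the change in WT cells, so the 2 are not independent. The comparison was flagged because the same treatment gave different changes in the 2 genotypes, and the cause was not tested.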

How the results depend on the processing

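Each count of members that passed was recomputed under every alternative. At more than 1.5-fold the counts were 5 with niraparib, 1 with olaparib and 1 between the drugs in WT cells, 0 in all 3 comparisons in PARP1 KO cells and between genotypes with DMSO, and 6 and 0 for the niraparib and olaparib interactions. At an absolute log2 fold change above 1.5 it was 0 in all 9 comparisons, with at most 3.16% of all genes past it. With no filter on low counts, the comparison of genotypes with DMSO gave 2 members and the olaparib interaction 1, and DESeq2 gave 1 for the former, against 0 with edgeR as reported; why the filter matters was not tested. Leaving out 1 library gave 20 to 28 members with niraparib, 7 to 13 with olaparib and 19 to 26 between the drugs in WT cells; 0 with niraparib, 0 to 4 with olaparib and 1 to 10 between the drugs in PARP1 KO cells; 13 to 19 for the niraparib interaction; and 0 for the olaparib interaction and between genotypes with DMSO. These fits hold fewer samples.

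With the replicate number as a block the counts were 22, 12 and 25 in WT cells, 0, 3 and 6 in PARP1 KO cells, 0 between genotypes with DMSO, and 16 and 0 for the interactions, each within 1.5 times the count reported. CD63 with olaparib in PARP1 KO cells did not pass with the block (adjusted P = 0.069). The numbers share only a label: deviations of same-numbered libraries correlated between -0.56 and 0.58. For the 93 pairs of a member and a comparison that passed, 1211 alternative values were computed; 1059 passed in the same direction, 152 had the same direction without passing and 0 were reversed. Of the 276 pairs that did not pass, 104 changed sign and 29 passed under some alternative. CLN3, at 0.42 to 2.23 CPM, had standard errors of 0.39 to 0.71.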
